A study of Mus musculus with 6 samples.

Results

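A set of 39 genes of the extracellular matrix and of the cells that make it was examined in RNA of natural killer (NK) cells and type 1 innate lymphoid cells (ILC1s) sorted out of mouse tumours. They were taken by symbol from a list of collagens, other matrix proteins and mesenchymal genes, and 39 of 39 were found among the 55291 symbols of the count table. The tumours were MC38, a colon carcinoma line of C57BL/6 origin, grown under the skin of wild-type C57BL/6 mice and taken 14 days after transplantation. Each cell type had 3 libraries, named NK_1 to NK_3 and ILC1_1 to ILC1_3 after their labels, with no treatment and no altered allele in either group. Neither the sort markers nor the number of mice behind the samples is in the labels, and p-values therefore measure the spread between these samples, which may be technical.

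Collagens are secreted as trimers of alpha chains. Types I, III and V build the fibrils of connective tissue, type VI forms beaded microfilaments, and type IV with the laminins forms the basement membrane under epithelium and around vessels. Fibroblasts make most of the fibrillar matrix of a tumour, pericytes and smooth muscle cells surround its vessels, and endothelial cells line them. ILC1s and NK cells are lymphocytes and are not known as a source of fibrillar collagen, but lymphocytes do carry Vim, Thy1 and S100a6 mRNA.

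Library totals ran from 16931099 to 20224847 counts, and a count of 0 allows up to 3 counts, which equal 0.144 to 0.174 CPM (counts scaled to a common library size with TMM factors), for counting error only. Integrins that tell the cell types apart followed the labels: Itga2, the NK cell integrin CD49b, was at 90.6 to 146 CPM in NK and 4.17 to 21.01 CPM in ILC1 libraries, and Itga1, the ILC1 integrin CD49a, at 39.9 to 53.0 and 130 to 177 CPM. Summed with Ncr1, Klrb1c, Tbx21 and Eomes, they were at 2638 and 2755 CPM in NK_1 and NK_2 and at 1709 CPM in NK_3. That sum was 1304, 1171 and 1142 CPM in ILC1_1, ILC1_2 and ILC1_3. NK_3, ILC1_1 and ILC1_2 stood apart from the other 3 libraries by the genes described here, but not by these alone. Mitochondrial genes took 2.65 to 3.30% of their counts against 1.39 to 1.93% in the others. The correlation of log2 CPM was 0.977 and 0.971 for NK_3 with ILC1_1 and ILC1_2, and 0.880 for NK_3 with each of NK_1 and NK_2. Genes with any count numbered 20772, 21799 and 21872 in NK_3, ILC1_1 and ILC1_2. They numbered 15819 and 15862 in NK_1 and NK_2 and 19402 in ILC1_3. This split of the libraries was made from earlier results of these data, so it is described library by library and not tested. Macrophage markers stood apart in ILC1_3, where the 15 markers summed to 15657 CPM, against 393 to 737 CPM in the other 5 libraries.

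Of the 39 genes, 29 were higher in each of NK_3, ILC1_1 and ILC1_2 than in each of the other libraries, where 21.5% of all 14475 tested genes had that pattern. In 21 genes the lowest of those 3 libraries was at least 4 times the highest of the others, against 5.63% of tested genes. Since the same genes led to the split, nothing is read from these shares. The 29 genes include both type IV collagens, all 3 type VI chains and all 5 fibrillar collagens of the list. In bulk RNA, fewer cells of a type and less RNA per cell cannot be told apart.

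**Figure D1:**
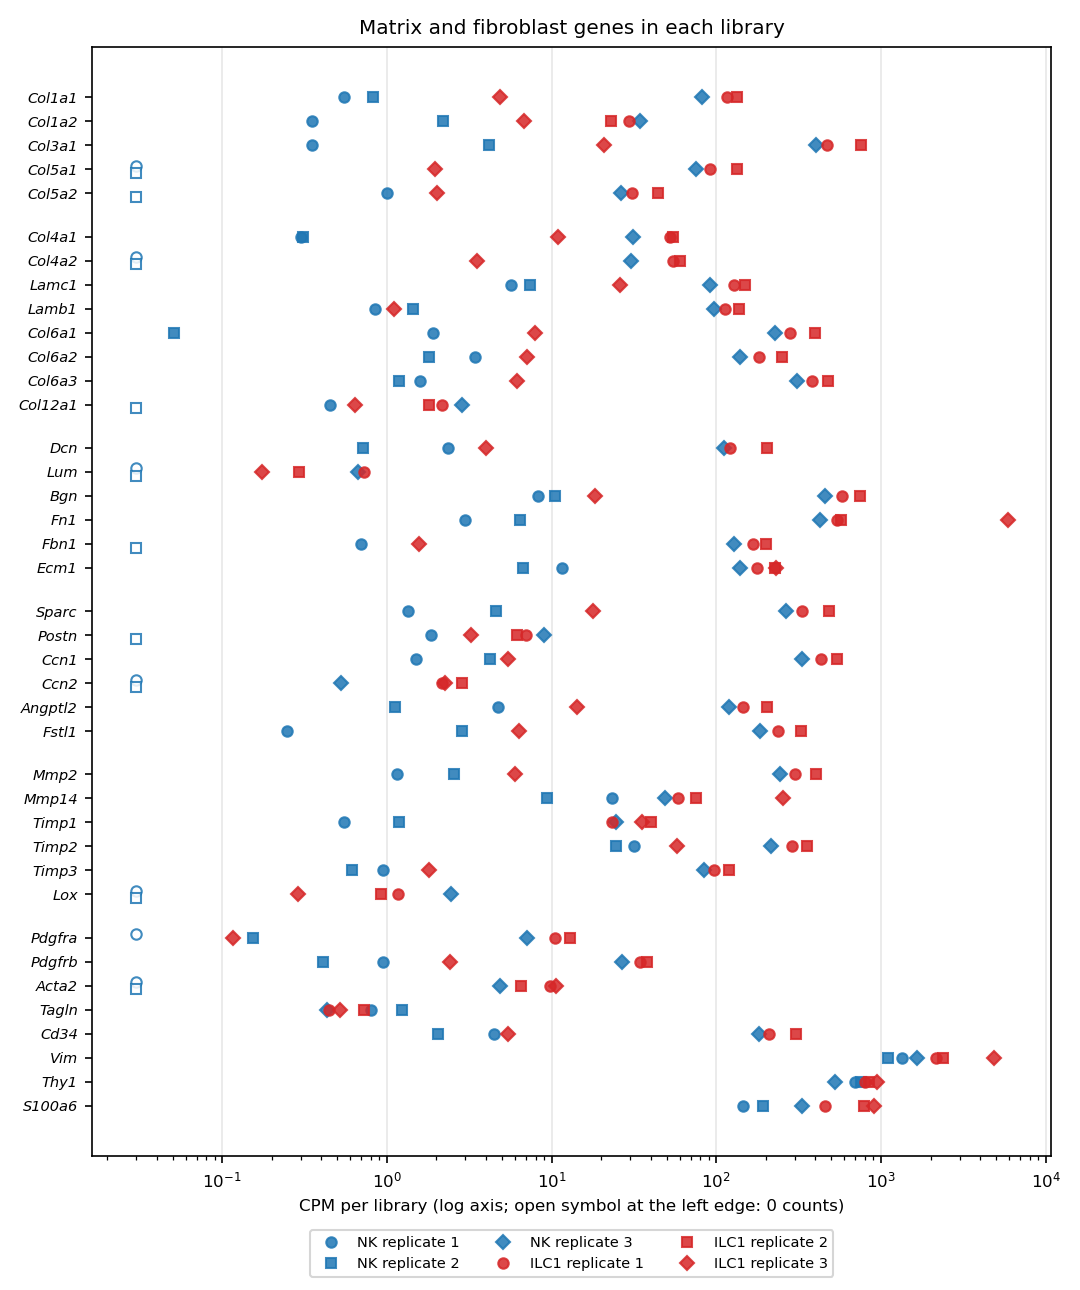
CPM of the 39 genes (rows, grouped by role) in each of the 6 libraries on a log axis, with NK libraries in blue and ILC1 libraries in red, and open symbols at the left edge for 0 counts. Most genes form a right-hand cluster of NK_3 with ILC1_1 and ILC1_2, such as Col3a1 at 403 to 761 CPM, while Vim, Thy1 and S100a6 are high in all 6 libraries and Fn1 is highest in ILC1_3.

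The sequences just upstream of 6 of these genes are shown to set 4 that followed the split (Col3a1, Col6a3, Bgn and Ccn1) beside 2 that did not (Ecm1 and Timp1). They are RefSeq promoter windows on GRCm38.p6, limited to the 250 bases before the start and to windows without an annotated exon. Capitals mark matches, on either strand, to the TATA box TATAAA, the CCAAT box CCAAT, the GC box GGGCGG, the TEAD motif GGAATG and the AP-1 motif TGANTCA. In Ccn1 the TATA box and a GC box adjoin, and in Bgn the last GC boxes overlap.
Col3a1, chr1:45311288-45311537, plus strand: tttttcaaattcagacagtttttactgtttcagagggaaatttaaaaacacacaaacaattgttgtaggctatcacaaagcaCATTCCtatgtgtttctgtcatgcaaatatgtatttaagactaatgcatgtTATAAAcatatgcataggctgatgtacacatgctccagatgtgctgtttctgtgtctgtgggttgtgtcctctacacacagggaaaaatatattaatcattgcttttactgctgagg
Col6a3, chr1:90843972-90844221, minus strand: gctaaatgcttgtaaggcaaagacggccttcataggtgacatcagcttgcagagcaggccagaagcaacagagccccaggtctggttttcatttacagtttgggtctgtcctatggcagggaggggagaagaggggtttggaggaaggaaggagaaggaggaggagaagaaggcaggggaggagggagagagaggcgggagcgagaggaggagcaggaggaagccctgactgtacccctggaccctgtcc
Bgn, chrX:73483351-73483600, plus strand: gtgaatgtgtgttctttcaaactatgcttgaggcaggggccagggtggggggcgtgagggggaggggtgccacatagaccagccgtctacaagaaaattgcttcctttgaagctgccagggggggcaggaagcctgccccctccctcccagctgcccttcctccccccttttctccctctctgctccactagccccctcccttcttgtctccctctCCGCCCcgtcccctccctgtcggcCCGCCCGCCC
Ccn1, chr3:145649986-145650235, minus strand: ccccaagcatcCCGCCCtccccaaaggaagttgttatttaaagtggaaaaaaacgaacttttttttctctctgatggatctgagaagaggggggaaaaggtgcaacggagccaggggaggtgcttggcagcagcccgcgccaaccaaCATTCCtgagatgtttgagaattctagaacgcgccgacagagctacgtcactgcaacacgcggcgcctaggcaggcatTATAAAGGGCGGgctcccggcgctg
Ecm1, chr3:95739570-95739819, minus strand: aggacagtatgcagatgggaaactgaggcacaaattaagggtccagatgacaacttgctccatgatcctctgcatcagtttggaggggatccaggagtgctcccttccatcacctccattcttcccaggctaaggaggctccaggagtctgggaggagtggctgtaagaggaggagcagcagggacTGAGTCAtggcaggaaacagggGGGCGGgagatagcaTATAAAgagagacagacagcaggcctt
Timp1, chrX:20869916-20870165, plus strand: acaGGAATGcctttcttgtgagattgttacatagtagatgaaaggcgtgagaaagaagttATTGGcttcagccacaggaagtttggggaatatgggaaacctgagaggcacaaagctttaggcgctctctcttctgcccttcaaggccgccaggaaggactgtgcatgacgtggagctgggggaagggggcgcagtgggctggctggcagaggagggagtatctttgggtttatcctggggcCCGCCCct

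No motif was common to the 4 windows that followed the split, because Col6a3 held none of them. The 6 windows are examples, since others without an annotated exon, such as that of Mmp14, were not shown. Nothing is read from their contrast. Col3a1 and Ccn1 held a TATA box and a TEAD motif, and Bgn held 3 GC boxes. The TATA box began 117 bases before the start in Col3a1 and 25 bases before it in Ccn1. Ecm1, which did not follow the split, also held a TATA box, 27 bases before the start, and Timp1 held a TEAD motif. Windows of 26 of the 39 genes were searched, each over the 250 bases before the start and leaving out chromosome 18. Other genes, such as Col1a1 and Fn1, had no window. Unlike the windows shown, some of these overlap annotated exons, over all 250 bases in Col4a1, Col4a2, Fbn1 and Vim. A gene was counted if any of its windows held the motif, and Col6a2 and Postn have several, while the shares of all windows are per window. A GC box was found in 15 of these 26 genes and in 32.7% of all 32851 windows, a TATA box in 5 and in 12.4%, a TEAD motif in 5 and in 12.6%, a CCAAT box in 9 and in 33.8%, and an AP-1 motif in 2 and in 6.75%. The CArG box, a motif of smooth muscle genes, was searched only as the strict pattern CCWWWWWWGG, where W is A or T. It was found in 0 of the 26 and in 1.47% of all windows, which says only that this strict pattern is not in these windows. Near matches were not counted, such as ccctatatgg and ccttgtttgg in the window of Acta2.

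Fibrillar collagens were highest in 3 libraries, lower in ILC1_3 and lowest in NK_1 and NK_2. Col3a1, the chain of type III collagen, was at 403 CPM in NK_3 and at 471 and 761 CPM in ILC1_1 and ILC1_2. Its level was 0.349 and 4.16 CPM in NK_1 and NK_2 and 20.8 CPM in ILC1_3. Both cell types thus had high and low libraries, and the groups overlapped.

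Col1a1, a chain of type I collagen, was at 82.3, 116 and 134 CPM in NK_3, ILC1_1 and ILC1_2, and at 0.549, 0.821 and 4.86 CPM in NK_1, NK_2 and ILC1_3. Col5a1, a chain of type V collagen that starts fibrils, was at 75.3, 92.1 and 134 CPM in the first 3 of these, at 1.97 CPM in ILC1_3, and had 0 counts in NK_1 and NK_2. Against a floor of 3 counts per library, that made it at least 489-fold higher in NK_3 and at least 12.8-fold higher in ILC1_3 than in those NK libraries. Col5a2, the partner chain, followed at 26.3, 30.9 and 44.4 CPM, with 0.998, 0 and 2.03 CPM in the others.

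The other chain of type I collagen had a different profile. Col1a2 was at 34.3, 29.7 and 23.0 CPM in NK_3, ILC1_1 and ILC1_2, and at 0.349, 2.21 and 6.77 CPM in NK_1, NK_2 and ILC1_3. Scaled by gene length, the level of Col1a1 was 4.55, 7.41 and 11.01 times that of Col1a2 in those first 3 libraries and 1.36 times in ILC1_3. With the longest transcript as length in place of all annotated exons, these ratios were 2.17, 3.53, 5.24 and 0.647, so their size depends on the gene model while their order does not. Col1a2 was outside the rule for named genes and was named after its values were seen, as were Col4a1, Col4a2, Lamb1, Col12a1, Lum, Fbn1, Ccn2, Postn, Timp3, Lox, Pdgfra and Pdgfrb.

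Type VI collagen led the collagens per unit length together with type III. Col6a1 was at 226, 282 and 397 CPM in NK_3, ILC1_1 and ILC1_2, and at 1.90, 0.0513 and 7.99 CPM in NK_1, NK_2 and ILC1_3. Col6a2 reached 139.7, 181 and 252 CPM in the first set and at most 7.12 CPM in the second, and Col6a3 reached 310, 382 and 476 CPM and at most 6.13 CPM. On GRCm38, Col6a1 (76708792 to 76726168) and Col6a2 (76595762 to 76623630) both lie on the minus strand of chromosome 10, and Col6a3 lies on chromosome 1 (90765923 to 90843971). Col3a1 (45311538 to 45349706, plus strand) and Col5a2 (45374321 to 45503282, minus strand) lie on chromosome 1 as well. All 39 genes are annotated as protein-coding, and counts refer to the whole gene.

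Among the 11 collagens of the list, the largest length-scaled shares were close in the 3 collagen-rich libraries, while small ones differed. Col6a1 held 30.2, 29.9 and 30.5% of the summed RPKM (CPM divided by gene length in kilobases) in NK_3, ILC1_1 and ILC1_2, Col3a1 held 24.0, 22.2 and 26.1%, and Col6a3 held 15.1, 14.8 and 13.4%. With the longest transcript as length, Col3a1 led instead with 31.5, 29.7 and 34.2%, and Col6a1 had 24.0, 24.1 and 24.3%. The share of Col1a2 was 1.61, 1.11 and 0.622% and that of Col12a1 0.110, 0.0660 and 0.0397% in these libraries. In ILC1_3 Col4a1 had 16.1% and Col6a1 20.1%.

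Basement membrane genes followed the same libraries, with gaps of different size. Lamc1, the gamma chain shared by most laminins, was at 92.2, 128 and 149 CPM in NK_3, ILC1_1 and ILC1_2, and at 5.64, 7.44 and 26.2 CPM in NK_1, NK_2 and ILC1_3. Col4a1 and Col4a2 encode the chains of the common type IV trimer and lie head to head on chromosome 8, where their annotated exons overlap by 22 bases. Col4a1 was at 31.0, 52.5 and 54.4 CPM and Col4a2 at 30.4, 54.4 and 60.2 CPM in NK_3, ILC1_1 and ILC1_2. In ILC1_3 they parted, at 10.9 and 3.53 CPM, and the ratio of Col4a1 to Col4a2 in RPKM was 2.73 there against 0.802 to 0.906 in the other 3. NK_1 and NK_2 had 6 counts each of Col4a1 and 0 counts of Col4a2. Lamb1, a laminin beta chain, had the widest gap of this group, at 96.7, 113 and 138 CPM in NK_3, ILC1_1 and ILC1_2 against 0.848, 1.44 and 1.099 CPM in NK_1, NK_2 and ILC1_3. Col12a1, a fibril-associated collagen, ranged from 0 to 2.88 CPM.

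Among proteoglycans and glycoproteins, Bgn and Dcn, the small leucine-rich proteoglycans biglycan and decorin, kept to the split. Bgn was at 457, 576 and 751 CPM in NK_3, ILC1_1 and ILC1_2, and at 8.28, 10.5 and 18.5 CPM in NK_1, NK_2 and ILC1_3. Dcn was at 112, 121 and 204 CPM in the first set and at 2.34, 0.718 and 3.99 CPM in the second. Lum, the related proteoglycan lumican, was near the floor throughout, with 3 to 14 counts in the 4 libraries where it was detected. It was the only one of the 39 genes left out of the test by the low-count filter. Fbn1, the microfibril protein fibrillin 1, ranged from 0 to 200.2 CPM and kept to the split.

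Fn1 and Ecm1 did not keep to the split. Fn1, fibronectin, was at 5887 CPM in ILC1_3, at 427 CPM in NK_3, at 543 and 575 CPM in ILC1_1 and ILC1_2, and at 2.99 and 6.46 CPM in NK_1 and NK_2. Ecm1, a secreted glycoprotein, was at 11.6, 6.72 and 139 CPM in the NK libraries and at 178, 228 and 230 CPM in the ILC1 libraries. For both genes every ILC1 library lay above every NK library, and for Fn1 a single library held the highest value by a wide gap. All 15 macrophage markers were highest in that library, where Lyz2 was at 5829, Cd14 at 2558, Ctsb at 1488 and Csf1r at 1075 CPM; their part in the level of Fn1 was not tested.

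Matricellular and secreted genes were led by Ccn1, whose protein (CYR61) binds integrins and whose gene is a target of YAP. It was at 333, 434 and 541 CPM in NK_3, ILC1_1 and ILC1_2 and at 1.50, 4.26 and 5.44 CPM in NK_1, NK_2 and ILC1_3. Its close relative Ccn2 (CTGF) was at 0.528, 2.17 and 2.87 CPM in the first set, at 2.26 CPM in ILC1_3 and at 0 counts in NK_1 and NK_2. Per unit length Ccn1 was 267 to 895 times Ccn2 in the first set and 3.42 times in ILC1_3. The upper end of that range rests on 11 counts of Ccn2 in NK_3.

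Sparc, a collagen-binding glycoprotein, was at 267, 331 and 485 CPM in NK_3, ILC1_1 and ILC1_2 and at 1.35, 4.62 and 17.8 CPM in the other libraries. Fstl1, a secreted follistatin relative, was at 185, 237 and 328 CPM against 0.249, 2.87 and 6.31 CPM. Angptl2, an angiopoietin-like secreted protein, was at 119, 146 and 203 CPM against 4.74, 1.13 and 14.2 CPM. Postn, periostin, was low, at 8.97, 7.003 and 6.13 CPM in the first set, 3.24 CPM in ILC1_3, and 1.85 and 0 CPM in NK_1 and NK_2.

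Proteases and their inhibitors showed both patterns. Mmp2, the gelatinase A gene, was at 242, 299 and 405 CPM in NK_3, ILC1_1 and ILC1_2 and at 1.15, 2.57 and 5.96 CPM in the others. Mmp14, which encodes the membrane protease that activates pro-MMP2, was highest in ILC1_3, at 256 CPM, followed by ILC1_2 at 75.2 and ILC1_1 at 58.8 CPM, and the NK libraries were at 23.1, 9.44 and 48.6 CPM. Timp2, an inhibitor that also takes part in that activation, was at 31.8, 24.6 and 215 CPM in NK and at 289, 355 and 58.0 CPM in ILC1 libraries.

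Timp1, an inhibitor of secreted metalloproteases, was at 0.549, 1.18 and 24.5 CPM in NK and at 23.2, 40.1 and 35.2 CPM in ILC1 libraries, so that NK_3 lay among the ILC1 libraries. Timp3, the matrix-bound inhibitor, ranged from 0.616 to 119.5 CPM and kept to the split. Lox, the lysyl oxidase that crosslinks collagen, was highest in NK_3 at 2.45 CPM, with 1.17, 0.924 and 0.289 CPM in the ILC1 libraries and 0 counts in NK_1 and NK_2.

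Receptors and surface genes of mesenchymal cells were present in the same 3 libraries. Cd34, a sialomucin of progenitor, endothelial and some fibroblast cells, was at 181, 209 and 304 CPM in NK_3, ILC1_1 and ILC1_2 and at 4.49, 2.05 and 5.44 CPM in the others. Pdgfra, the PDGF receptor of fibroblasts, was at 7.10, 10.5 and 12.9 CPM in the first set and at 0, 0.154 and 0.116 CPM in the second. Pdgfrb, the receptor of pericytes and fibroblasts, was at 26.9, 34.6 and 37.8 CPM against 0.948, 0.410 and 2.43 CPM.

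The contractile genes were low. Acta2, smooth muscle actin, was at 4.85, 9.78 and 6.52 CPM in NK_3, ILC1_1 and ILC1_2, at 10.7 CPM in ILC1_3 and at 0 counts in NK_1 and NK_2, so it was at least 69.6-fold higher in ILC1_3 than in those NK libraries. Tagln, transgelin, had 0.432 to 1.23 CPM in all 6 libraries with the highest value in NK_2. Its exons overlap those of genes on the opposite strand over 1349 bases, and as the strand setting of the counting is not given, reads of both strands cannot be told apart. The same limit holds for other genes, among them Fbn1 over 2442 bases, Timp3 over 1733 bases and Ccn2 over 665 bases.

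Vim, Thy1 and S100a6 were abundant in all 6 libraries. Vim, an intermediate filament gene, was at 1349.7, 1099 and 1656 CPM in NK and 2153, 2384 and 4861 CPM in ILC1 libraries. S100a6, a calcium-binding protein gene, was at 146, 193 and 332 CPM in NK and 460.2, 784 and 908 CPM in ILC1 libraries. Thy1 (CD90) was at 694, 760.04 and 526 CPM in NK and 796, 850.0 and 942 CPM in ILC1 libraries. In these 3 genes the cell types did not overlap, and ILC1_3 was the highest library.

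The comparison of ILC1s with NK cells asked whether these genes differed by cell type. None of the 38 tested genes passed edgeR's quasi-likelihood test at a Benjamini-Hochberg adjusted p under 0.05, where 0.076% of all tested genes were higher and 0.00691% lower in ILC1s. At an unadjusted p under 0.05, 3 of the 38 were higher in ILC1s and 0 were lower, against 6.95% of all tested genes higher and 15.8% in either direction. DESeq2 called 3 of 39 higher (background 1.5%) and 0 lower (1.56%), and limma-voom called 0 higher (0.111%) and 0 lower (0.0138%). The DESeq2 background is over 26185 genes with any count, some without an adjusted p, and not over the 14475 genes of edgeR. The log2 fold change was above 0 in 36 of 38 genes, against 56% of all tested genes, with a median of 1.53 against 0.081. The high side of the split holds ILC1_1 and ILC1_2 but only NK_3 of the NK libraries. A gene that follows the split therefore tends to a fold change above 0, and no difference by cell type is read from this share. The median over the same 38 genes was 3.04 with limma-voom and 4.77 with the replicate number as a block, so its size depends on the model. Its SE exceeded the fold change itself in 26 genes, for example in Col3a1 (1.62 ± 2.28, adjusted p = 0.749 in edgeR), where ILC1 libraries averaged 418 ± 373 CPM and NK libraries 136 ± 231 CPM (SD, n = 3 each).

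The 3 genes with the smallest edgeR p were S100a6, Vim and Mmp14, and DESeq2 called the same 3. The log2 fold change (ILC1 minus NK) of S100a6 was 1.68 ± 0.40 (SE, edgeR adjusted p = 0.166, DESeq2 adjusted p = 0.000465), with 717 ± 231 CPM in ILC1 and 223 ± 96.7 CPM in NK libraries (SD, n = 3). That of Vim was 1.195 ± 0.36 (edgeR adjusted p = 0.239, DESeq2 adjusted p = 0.0188), and 0.71 without ILC1_3. That of Mmp14 was 2.26 ± 0.83 (edgeR adjusted p = 0.292, DESeq2 adjusted p = 0.00903), and 1.28 without ILC1_3. Across the ILC1 and NK libraries, 8 genes did not overlap, all higher in ILC1s: Fn1, Ecm1, Ccn2, Mmp14, Acta2, Vim, Thy1 and S100a6, where 12.5% of all tested genes were higher without overlap.

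Results changed with the libraries compared. Without NK_3, edgeR called 5 genes higher in ILC1s (Col4a1, Ecm1, Ccn2, Timp1 and Acta2; background 1.67%), and the median log2 fold change over the 38 tested was 6.18. Without ILC1_3 it called 0 of 39 higher and 0 lower, against 0.0729% of tested genes in each direction. Comparisons within the library sets rest on sets chosen from these genes and on 1 library in an arm, assumed to vary like the others, so their counts are descriptions of those libraries and support nothing about the cell types. Within NK_3, ILC1_1 and ILC1_2, 11 of 39 genes lay past edgeR's threshold with higher values in ILC1s (background 6.13%) and 0 with lower values (6%), with a median log2 fold change of 0.49. Within NK_1, NK_2 and ILC1_3, the library that stood apart by macrophage markers, these counts were 9 of 36 (background 8.69%) and 0 (4.26%).

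**Figure D2:**
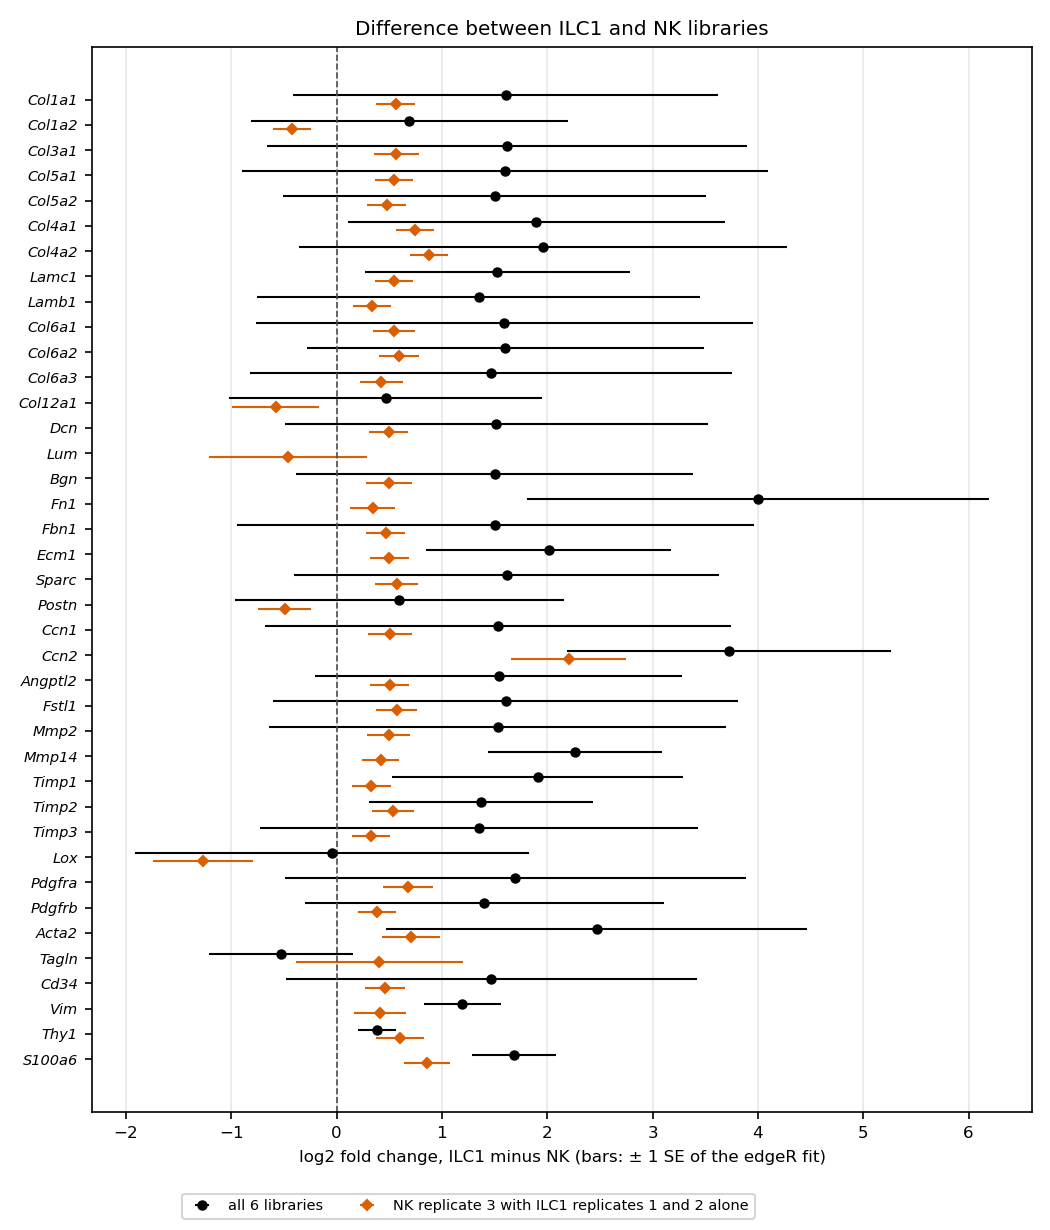
Log2 fold change, ILC1 minus NK, of each gene with bars of ± 1 SE from edgeR, over all 6 libraries (black circles) and over NK_3 with ILC1_1 and ILC1_2 alone (orange diamonds). Over all 6 libraries the bars of 26 genes cross 0, and within the 3 libraries most genes sit near the median of 0.49 while Col1a2, Col12a1, Lum, Postn and Lox lie below 0.

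Between the 3 collagen-rich libraries most genes differed by a similar factor. The ratio of NK_3 to ILC1_1 in CPM had a median of 0.802 over the 39 genes, with 33 within 1.5-fold of equality, where the median over all tested genes was 0.976. For ILC1_2 over ILC1_1 the median was 1.25 with 32 within 1.5-fold, against a median of 1.01 over all tested genes. The share of all tested genes within 1.5-fold is not given here, so these counts show nothing particular to the 39 genes. In NK_3 the 6 genes outside 1.5-fold were Lox at 2.096 (95% counting interval 1.24 to 3.67), Thy1 at 0.661 (0.645 to 0.678), Col4a1 at 0.591 (0.534 to 0.654), Col4a2 at 0.559 (0.505 to 0.618), Acta2 at 0.495 (0.384 to 0.636) and Ccn2 at 0.243 (0.112 to 0.485). Above 1 were also Col12a1 at 1.33 (0.873 to 2.04), Postn at 1.28 (1.02 to 1.62), Col1a2 at 1.15 (1.03 to 1.29) and Timp1 at 1.05 (0.924 to 1.201), of which the intervals of Col12a1 and Timp1 include 1.

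The remaining libraries had a wider spread of ratios. ILC1_3 over ILC1_1 had a median of 0.070, with 21 genes below a ratio of 0.1 and a range from 0.00937 (Fbn1) to 10.8 (Fn1). The ratio was above 1 in 10 genes, with the interval above 1 in Fn1, Mmp14 at 4.35 (4.07 to 4.66), Vim at 2.26 (2.23 to 2.29), S100a6 at 1.97 (1.92 to 2.03), Timp1 at 1.51 (1.33 to 1.72), Ecm1 at 1.296 (1.24 to 1.36) and Thy1 at 1.18 (1.16 to 1.21). The intervals of Ccn2, Acta2 and Tagln include 1. The ratios of NK_1 and NK_2 to ILC1_1 had medians of 0.00975 and 0.00980, with 31 and 34 genes below 0.1, and only Tagln was above 1 in each. The share of all tested genes below 0.1 is not given here, so these counts are descriptions only.

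**Figure D3:**
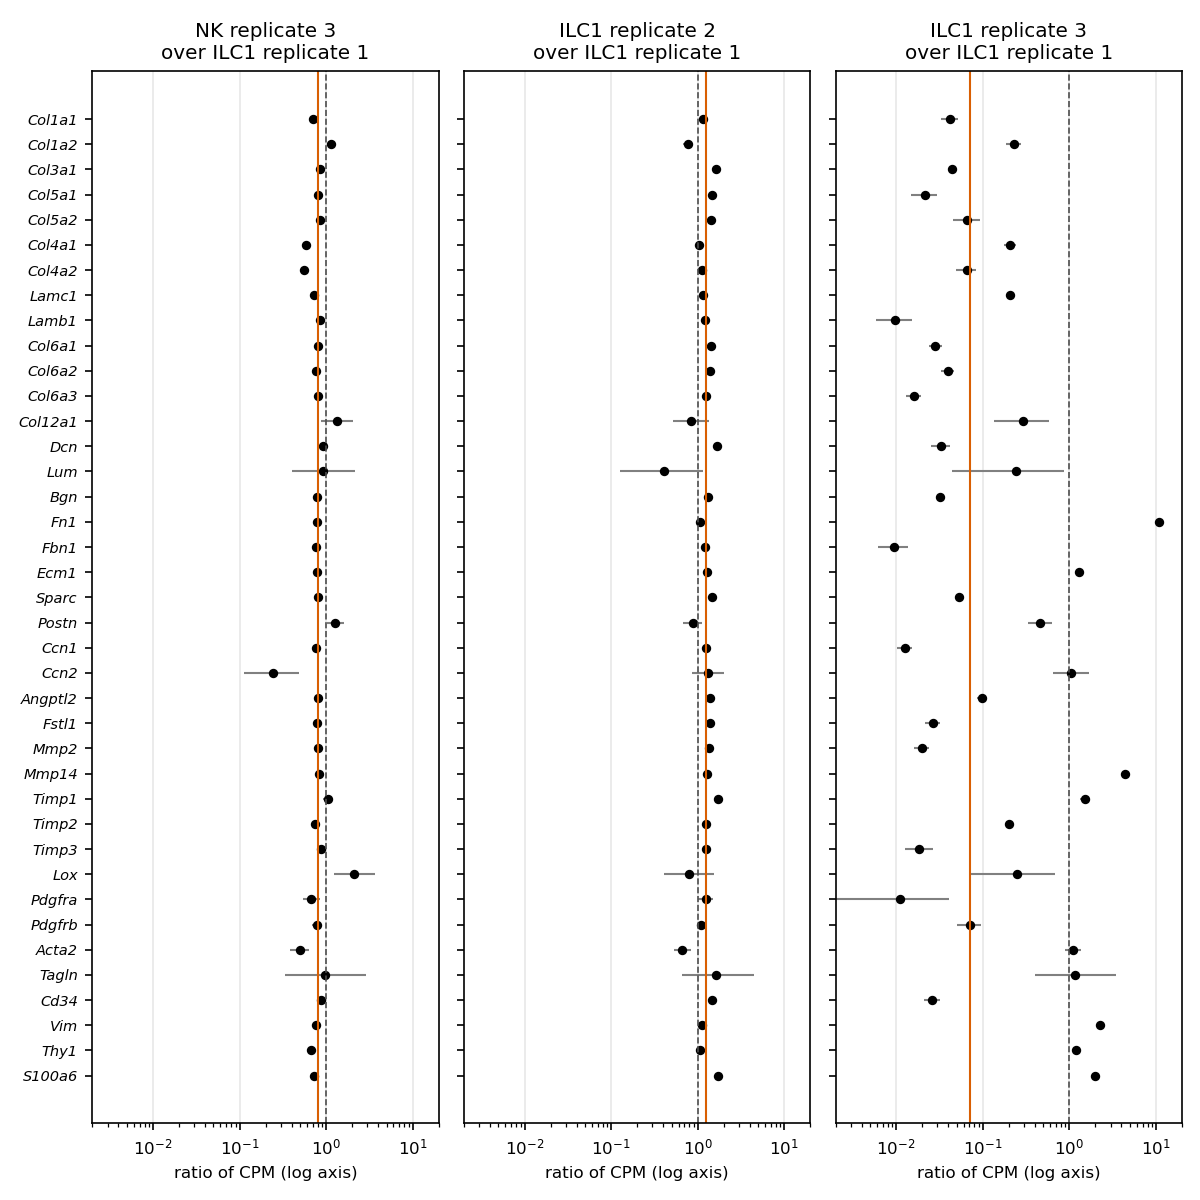
Ratio of CPM to that in ILC1_1 for each gene (log axes), with exact 95% counting intervals as grey bars, the median over genes as an orange line and equality as a dashed line. The points line up near 0.802 for NK_3 and 1.25 for ILC1_2, and spread from 0.00937 to 10.8 for ILC1_3.

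Many matrix genes outside the list also followed the split. Of 69 such genes, 44 were higher in each of NK_3, ILC1_1 and ILC1_2 than in each other library, against 21.5% of all tested genes. The 44 include genes left out of the test by the low-count filter, such as Col6a5 with 3, 3 and 4 counts in those libraries. In edgeR 0 of the 57 tested passed the adjusted threshold, 7 were higher and 2 lower in ILC1s by unadjusted p (6.95% of all tested genes were higher), and 55 had a fold change above 0 (56% of all tested genes). Here too the layout of the split favours a fold change above 0, so no difference by cell type is read from that share. Collagen processing genes included the collagen chaperone Serpinh1, at 229, 308 and 427 CPM in NK_3, ILC1_1 and ILC1_2 and at 4.59 to 9.84 CPM in the others, and the procollagen protease enhancer Pcolce, at 94.3, 117 and 176 CPM against 1.85 to 4.98 CPM. P4ha1, a prolyl hydroxylase subunit, was at 56.9 to 223 CPM and Plod3, a lysyl hydroxylase, at 29.3 to 146 CPM over the 6 libraries, both highest in ILC1_3. Fbln2, fibulin 2, was at 220.3, 303 and 386 CPM and Hspg2, perlecan, at 193, 263 and 335 CPM in those 3 libraries, against at most 4.46 and 2.72 CPM.

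Several matrix genes outside the list departed from it. Thbs1, thrombospondin 1, was at 4083 CPM in ILC1_3 against 11.6 to 87.3 CPM in the other 5, and the macrophage elastase Mmp12 at 747 CPM against 2.69 to 35.9 CPM. Mmp13, collagenase 3, was at 217 CPM in ILC1_3 against 0.154 to 7.11 CPM. Mmp9, gelatinase B, was highest in NK_1 and NK_2, at 451 and 133 CPM, and at 7.95 to 8.81 CPM elsewhere. Col8a2 was at 43.8, 50.8 and 24.1 CPM in the NK and 5.67, 5.69 and 2.03 CPM in the ILC1 libraries (log2 fold change -3.15, edgeR adjusted p = 0.105).

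Markers of the cells that could carry these transcripts were examined for the source of the profile, with levels only. Counts of markers that followed the split are over all listed genes, tested or not, and the 21.5% is over tested genes only. The 15 fibroblast markers summed to 131, 145 and 200 CPM in NK_3, ILC1_1 and ILC1_2, to 9.93 and 12.7 CPM in NK_1 and NK_2 and to 265 CPM in ILC1_3, and 8 of 15 followed the split (21.5% of all tested genes). Prrx1, a mesenchymal transcription factor, was at 37.9, 39.3 and 53.8 CPM and Twist1 at 11.8, 15.4 and 20.1 CPM in the 3 libraries, against at most 1.50 and 0.975 CPM in the others. Pdpn, podoplanin, was highest in ILC1_3 at 231 CPM, where macrophage markers were highest as well, and was at 36.8, 42.6 and 60.2 CPM in the 3. Defining markers of activated tumour fibroblasts were low. Fap was at 0 to 0.438 CPM, and Lrrc15, which followed the split, had 29, 11 and 20 counts in the 3 libraries, 8 in ILC1_3 and 0 in NK_1 and NK_2.

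Other stromal lists differed in how far they followed. Of 12 pericyte and smooth muscle markers 3 followed the split (Cspg4, Tpm2 and Rgs5), a share near the 21.5% of all tested genes, with Cspg4 at 40.1, 58.2 and 65.9 CPM against at most 8.43 CPM, while Mcam and Kcnj8 did not, and the list summed to 33.7 to 135 CPM over the 6 libraries. Of 14 endothelial markers 10 followed it (21.5% of all tested genes), at low level, such as Plvap at 2.30, 9.89 and 12.3 CPM and the defining cadherin Cdh5 at 3.74, 8.45 and 7.64 CPM. Pecam1, at 163 to 257 CPM in all 6 libraries, made up most of the endothelial sum of 198 to 259 CPM. Flt1 was highest in ILC1_3, at 33.1 CPM.

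Epithelial and carcinoma markers did not follow the split in any of 13 cases. Krt20 and Cdx2 had 0 counts in all libraries, Krt8 and Krt18 reached at most 2.001 and 3.64 CPM, in NK libraries, Epcam was at 1.33 to 4.34 CPM, and the list summed to 27.9 to 389.7 CPM. Cdh1, which some lymphocytes and macrophages also carry, was at 12.1 to 23.2 CPM in NK libraries and at 107, 97.4 and 377 CPM in ILC1 libraries, where it made up most of that sum. Of 7 keratinocyte markers 3 followed the split (21.5% of all tested genes), with Krt14 at 21.6, 29.5 and 39.1 CPM against 0 to 0.347 CPM, while Krt5 and Krt15 were at or under 0.528 CPM. Adipoq, Plin1, Lep and Cidec had 0 counts throughout. The haemoglobin gene Hbb-bs was at 8.54, 19.7 and 15.7 CPM in the 3 libraries against at most 1.91 CPM. Of the remaining lists, set beside the same 21.5%, 4 of 5 red cell markers, 1 of 6 adipocyte, 1 of 6 Schwann cell and 1 of 6 platelet markers followed the split, and 0 of 7 skeletal muscle, 0 of 6 T cell and 0 of 4 B cell markers did. The Schwann cell marker was Ngfr, at 16.7, 25.01 and 28.5 CPM in the 3 libraries against at most 0.648 CPM. The part of fibroblasts, pericytes, endothelial cells, keratinocytes or tumour cells in the collagen levels was not tested.

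**Figure D4:**
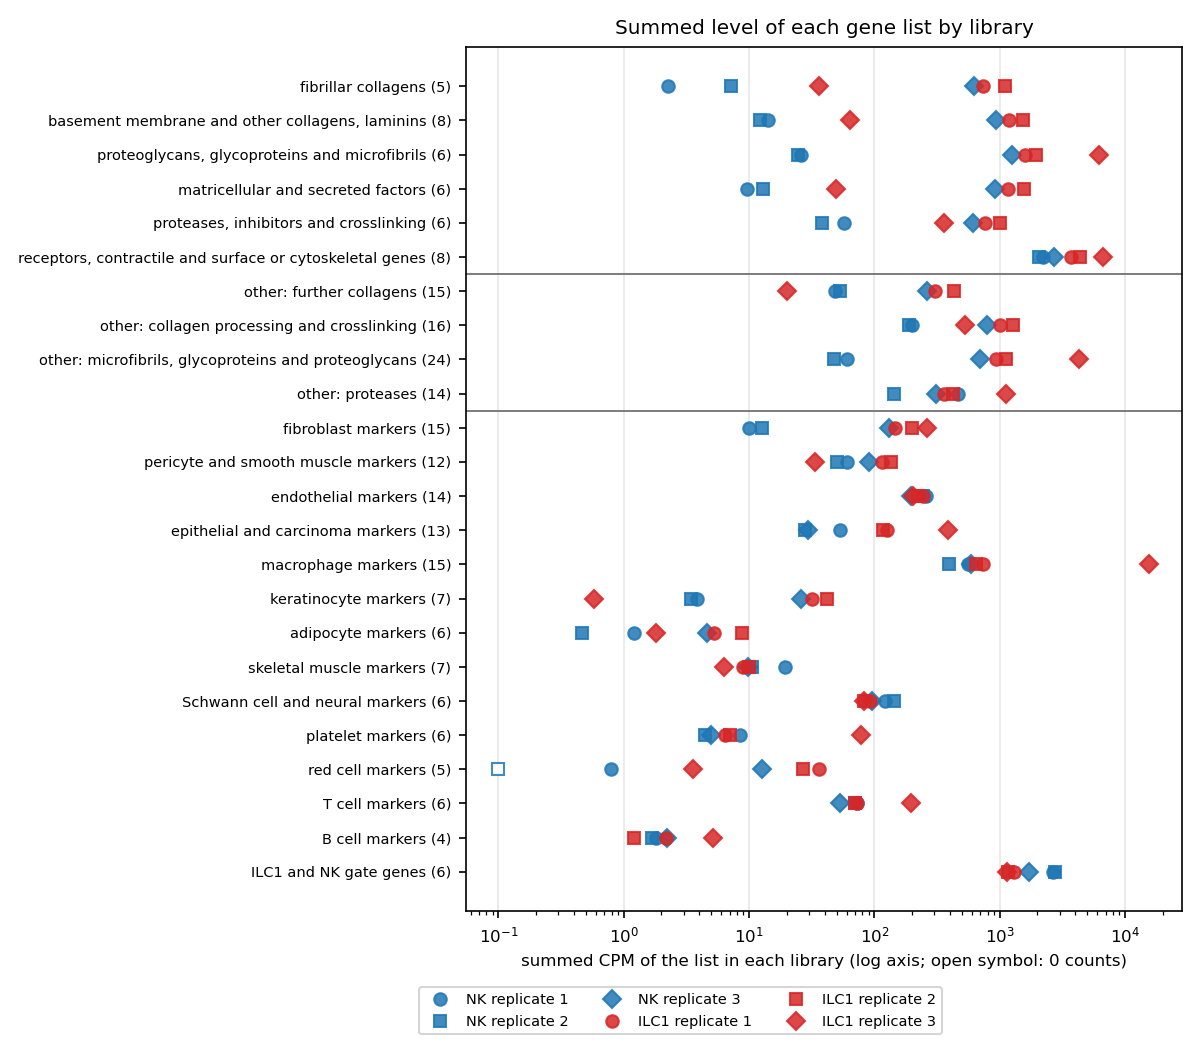
Summed CPM of each gene list (number of genes in brackets) in the 6 libraries on a log axis, with the roles of the 39 genes at the top, other matrix genes in the middle and cell type markers below. The fibrillar collagens sum to 621 to 1096 CPM in NK_3, ILC1_1 and ILC1_2 and to 2.24 to 36.4 CPM in the others, fibroblast and keratinocyte markers have the 3 libraries well above NK_1 and NK_2, and macrophage markers are highest in ILC1_3.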

How the data were processed

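Poly(A)-selected RNA of 3 NK cell and 3 ILC1 samples was sequenced as short single-end reads, per the labels' protocols. The authors deposited raw read counts per gene, made with HISAT2 2.1.0 and featureCounts 2.0.1 on GRCm38, per the submitters' processing notes. The sources used here do not give the annotation release, whether strand was used, or how reads with several matches were treated.

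CPM were computed with TMM-scaled library sizes and RPKM with exon lengths of GENCODE M21 (GRCm38), which held all 39 genes. ILC1s were compared with NK cells by edgeR 4.0.16 (quasi-likelihood, robust, filterByExpr, adjusted p under 0.05 over 14475 genes), with DESeq2 1.42.0 and limma-voom (limma 3.58.1) as alternatives, all in R 4.3.3. The test was also run on simulated counts, and no result given here rests on that run. Intervals of ratios are exact 95% counting intervals, and counting error covers reads, not molecules.

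The members, the lists and the split of the libraries were chosen with earlier results of these data known. Named were, per role, up to 4 members with the highest mean RPKM, members highest in NK_1, NK_2 or ILC1_3, members at 10 CPM or more in all libraries, and up to 4 genes per other list by maximum CPM with those at 0 throughout. Other genes of those lists were named after their values were seen.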

Additional observations from a re-analysis of the deposited data

How the results depend on the processing

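The count of genes called by edgeR (11 higher and 1 lower in ILC1s) depended on the processing and on the libraries used. It was 47 and 91 without the low-count filter, 394 and 408 with DESeq2, 956 and 935 within NK_3, ILC1_1 and ILC1_2, and 1320 and 647 within NK_1, NK_2 and ILC1_3. With a minimum mean of 5 CPM and with limma-voom 2 genes were lower. Leaving out 1 library gave 0 to 250 higher and 0 to 199 lower, the upper ends without NK_3. Of the 39 genes, 0 were called higher in the main fit, 3 with DESeq2, and 0 to 5 with 1 library left out. Of the 184 genes of the other lists 0 were called in either direction; 6 were higher and 4 lower with DESeq2, 1 lower without the filter, 42 higher and 9 lower and then 30 higher and 3 lower within the library sets, and 0 to 7 higher and 0 to 2 lower with 1 library left out. Replicate numbers are shared between the cell types, and same-numbered libraries did not deviate together (r = -0.36, -0.36 and -0.56). These values follow the split of the libraries, with r = 0.49 and 0.57 for NK_3 with ILC1_1 and ILC1_2. They therefore cannot tell whether a number marks a shared animal or day. With the replicate number as a block, 0 genes were called in either direction and the log2 fold change of Lox was 3.71. Lox was -0.04 otherwise, 2.64 with limma-voom and -0.67 to 6.94 with 1 library left out, and Col12a1 ranged from -0.11 to 2.74. Within NK_3, ILC1_1 and ILC1_2 the sign turned for Col1a2 (-0.42), Col12a1 (-0.58), Postn (-0.49) and Tagln (0.41), and within the other set for Lamb1 (-0.033). The cause was not tested. Of 601 alternative fold changes of the 39 genes, fits within the library sets included, 591 kept direction and 10 were reversed. Their size was less stable, with a median over the tested genes of 1.53 in the main fit, 4.77 with the replicate block and 6.18 without NK_3. As the main fit called 0 of these genes, keeping the same side of the threshold would say little and is not counted. RLE and upper-quartile scaling turned no sign. Genes near 3 counts, such as Lum, Lox and Ccn2, are limited by depth.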
